A study of Homo sapiens with 6 samples.

Results

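The 38 genes described here encode the protein-folding machinery of the endoplasmic reticulum (ER), the channel through which proteins enter it, the degradation route for proteins that fail to fold, and the sensors of the unfolded protein response (UPR). They were taken by symbol from a written list that was chosen with earlier results of these data known. Each had a row of its own among the 79302 genes of the count table. Of the 38 genes, 12 encode chaperones and their cofactors, 6 encode enzymes of disulfide bond formation, 8 encode parts of the Sec61 translocon, 8 act in ER-associated degradation (ERAD) and 4 are the UPR sensors with XBP1. RNA-seq was performed on 6 libraries of HCT116, a human colorectal carcinoma cell line, of which 3 carried an shRNA against GDPD5 (shGDPD5) and 3 carried a control shRNA (shCtrl). In both groups the cells were a radioresistant HCT116 derivative collected 6 h after 4 Gy of irradiation, and no unirradiated or parental cells were among the libraries. The radioresistance, dose and time are known from the publication and are not in the sample labels. Neither source says which of the GDPD5 shRNAs was sequenced or whether the 3 libraries of a group were separate cultures, so the p-values measure the spread between these libraries, which may be technical, and an effect of the knockdown cannot be told apart from an effect particular to the shRNA used.

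Membrane and secreted proteins enter the ER through the Sec61 channel and fold there with the help of the Hsp70-type chaperone BiP, the Hsp90-type chaperone GRP94, the lectin chaperones calnexin and calreticulin, and protein disulfide isomerases. When unfolded proteins accumulate, the transmembrane sensors IRE1, PERK and ATF6 signal to the nucleus. IRE1 splices XBP1 mRNA, ATF6 is cleaved to release a transcription factor, and PERK slows translation while favouring that of ATF4. Spliced XBP1 and cleaved ATF6 are known to raise the genes of chaperones, translocon parts and ERAD through short promoter elements that contain the letters CCACG or their complement.

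GDPD5, a glycerophosphodiester phosphodiesterase gene and the target of the shRNA, had 93, 104 and 92 counts in the shGDPD5 libraries, against 143, 206 and 169 counts in the shCtrl libraries. Its level was 5.39 ± 0.185 CPM (counts scaled to library size) in shGDPD5 and 9.90 ± 1.65 CPM in shCtrl cells (SD, n = 3 each), a log2 fold change of -0.88 (edgeR adjusted p = 0.000117), so its mRNA was lowered but still counted in every library. Totals were 16715447, 18510670 and 17374506 counts in the shGDPD5 libraries and 17602320, 18076702 and 17741289 counts in the shCtrl libraries. The 5 epithelial markers EPCAM, KRT8, KRT18, KRT19 and CDH1 had at least 2073 counts in every library, while the leukocyte marker PTPRC had 0 to 2 counts, the endothelial marker PECAM1 0 or 1 count and the fibroblast marker COL1A2 0 counts in every library. All 5 epithelial markers were lower in shGDPD5 cells, with log2 fold changes of -0.31 for EPCAM, -0.16 for KRT8, -0.46 for KRT18, -0.73 for KRT19 and -0.83 for CDH1 (edgeR adjusted p at most 0.0304), and the part of this shift in the values of the members was not tested. The other fibroblast marker, COL1A1, was not absent: it stood at 323 to 417 counts, with groups that overlap.

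The deposited estimated counts were tested across 16755 genes with edgeR's quasi-likelihood test, and CPM values are scaled by the trimmed mean of M values (TMM). The comparison changed much of the transcriptome: at an adjusted p under 0.05, 30.1% of all tested genes were lower and 29.7% higher in shGDPD5 cells, and their median log2 fold change was 0.01. A call alone therefore says little about a gene, and the counts of members below are to be read beside these shares.

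Beyond their function, several members share a promoter sequence of a kind through which the UPR is known to act, and it is shown here. Whether the UPR acts at the sites found in these genes was not tested. RefSeq promoters on GRCh38.p14, each from 250 bases before to 50 bases after a transcript start, were available for 35 of the 38 genes (44 windows), the others being PDIA3, DERL1 and DERL3. Both strands were searched for the ER stress element ERSE (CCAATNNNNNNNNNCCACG), for ERSE-II (ATTGGNCCACG), for the UPR element UPRE (TGACGTGG) and for the amino acid response element bound by CHOP and ATF4 complexes (TGATGNAA). An ERSE match was found in 8 members, HSPA5, HSP90B1, CALR, CANX, CRELD2, PDIA6, ERO1B and XBP1, which is 22.9% of those searched, against 27 of all 35097 windows (0.0769%) and 25 of 27305 genes (0.0916%). Since the members were listed as genes of the response that acts through this element, the higher share is no independent finding. ERSE-II was found in HYOU1, HERPUD1 and SDF2L1, against 0.0541% of all windows, and UPRE in HYOU1, SEC62 and SSR3, against 0.729%. HERPUD1 was the member that held TGATGNAA, which 3.62% of all windows hold. The matched letters are in capitals, and each sequence runs 5′ to 3′ on the gene's own strand, so that a match on the opposite strand reads CGTGG before ATTGG or CCAAT. In HYOU1 the UPRE match shares bases with the ERSE-II match that lies farther from the start.
HSPA5, chr9:125241386-125241414, minus strand: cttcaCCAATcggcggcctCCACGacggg
HSP90B1, chr12:103930211-103930239, plus strand: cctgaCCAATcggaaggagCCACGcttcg
HSP90B1, chr12:103930316-103930344, plus strand: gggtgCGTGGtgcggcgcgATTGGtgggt
PDIA6, chr2:10812848-10812876, minus strand: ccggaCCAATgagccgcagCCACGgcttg
ERO1B, chr1:236282178-236282206, minus strand: gcccgCGTGGtcccgcctcATTGGccgcc
CANX, chr5:179698773-179698801, plus strand: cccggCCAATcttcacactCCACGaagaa
XBP1, chr22:28800598-28800626, minus strand: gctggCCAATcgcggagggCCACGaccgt
CALR, chr19:12938379-12938407, plus strand: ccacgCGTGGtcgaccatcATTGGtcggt
CRELD2, chr22:49918549-49918577, plus strand: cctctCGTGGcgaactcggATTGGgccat
HYOU1, chr11:119057375-119057395, minus strand: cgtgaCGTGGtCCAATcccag
HYOU1, chr11:119057269-119057289, minus strand: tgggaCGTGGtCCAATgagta
HERPUD1, chr16:56932020-56932040, plus strand: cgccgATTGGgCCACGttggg
SDF2L1, chr22:21642109-21642129, plus strand: ggaagCGTGGaCCAATcaaaa

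Members with an ERSE match moved in both directions. Of these 8, 6 fell, while CALR rose and CRELD2 did not pass the test. Their median log2 fold change was -0.76, against -0.68 for the 27 members searched that have none, among them the 3 with ERSE-II. Of those 3, HYOU1 and HERPUD1 fell and SDF2L1 did not pass, and their median was -1.17, against -0.70 for the 32 members searched without ERSE-II. The 3 members with UPRE fell with a median of -0.51, against -0.71 for those without. These medians are a description, and no difference between them was tested. Over all 11291 tested genes with a promoter in the table, 16 held an ERSE match, of which 9 (56.2%) fell. The share of 30.1% is over all 16755 tested genes, with or without a promoter in the table. The 8 members are among these 16, so the 56.2% is no independent finding. Of the 8 of these that are no members, 3 fell, namely SERP1, a translocon-associated stress gene (log2 fold change -0.86), FICD, which modifies BiP (-1.48), and SYNPO (-2.34), while ALG12 (0.44) and EIF2A (0.50) rose and the other 3 did not pass. Over the same 11291 genes, 15 held an ERSE-II match, of which 3 fell, and their median log2 fold change was 0.15. Of the 12 of these that are no members, 1 fell. The low median of the members with ERSE-II was therefore not shared by all tested genes with that match. UPRE was held by 138 tested genes, of which 67 (48.6%) fell, with a median of -0.17. A match describes the letters in this window and not binding of a factor.

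**Figure D1:**
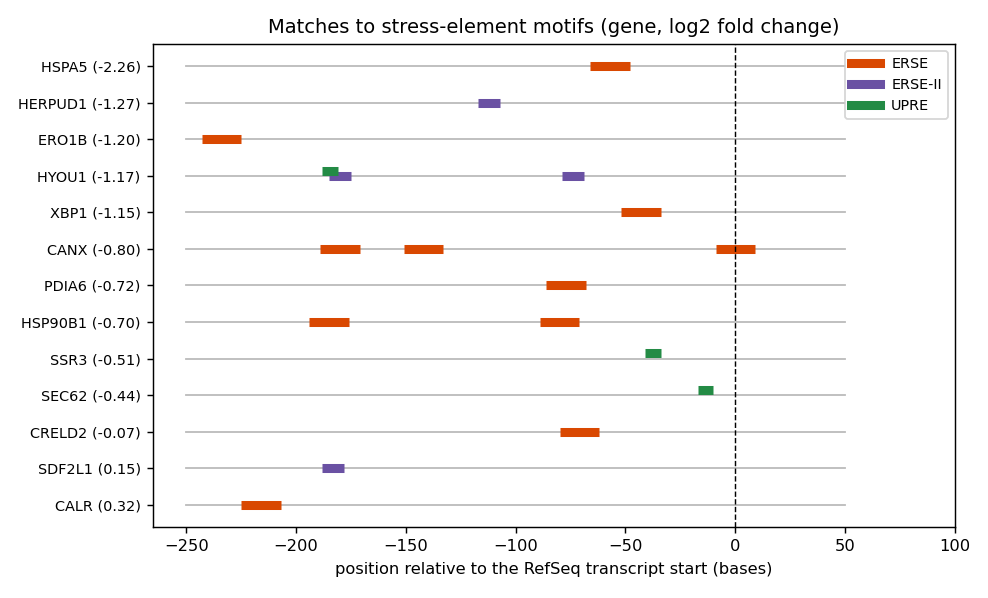
Positions of ERSE, ERSE-II and UPRE matches in the promoter windows of 13 members, in bases from the RefSeq transcript start (dashed line), with the log2 fold change of shGDPD5 over shCtrl beside each name and the lowest at the top. The CANX bars are a single genomic site seen from 3 annotated starts, and matches stand in genes with log2 fold changes from -2.26 (HSPA5) to 0.32 (CALR).

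Most of the group, which was chosen with earlier results of these data known, was lower in shGDPD5 cells. Of the 38 members, 37 passed the filter on low counts, and of these 32 fell, 3 rose and 2 did not pass the test, beside the 30.1% and 29.7% of all genes that fell and rose. The median log2 fold change of the members was -0.70, against 0.01 over all tested genes, and it lay between -2.26 for HSPA5 and 0.32 for CALR. In 31 of the 37 members every shGDPD5 library was below every shCtrl library, as was the case for 32.4% of all tested genes. With the study's thresholds, taken here as a log2 fold change beyond -1 or 1 and p under 0.05 before adjustment, 11 members were lower and 0 were higher, beside 6.60% of all genes lower and 5.38% higher. These 11 were HSPA5, DNAJB9, HYOU1, MANF, ERO1B, SSR1, HERPUD1, SEL1L, ERN1, ATF6 and XBP1. In bulk RNA a lower level in every cell and a lower share of cells that express a gene cannot be told apart.

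**Figure D2:**
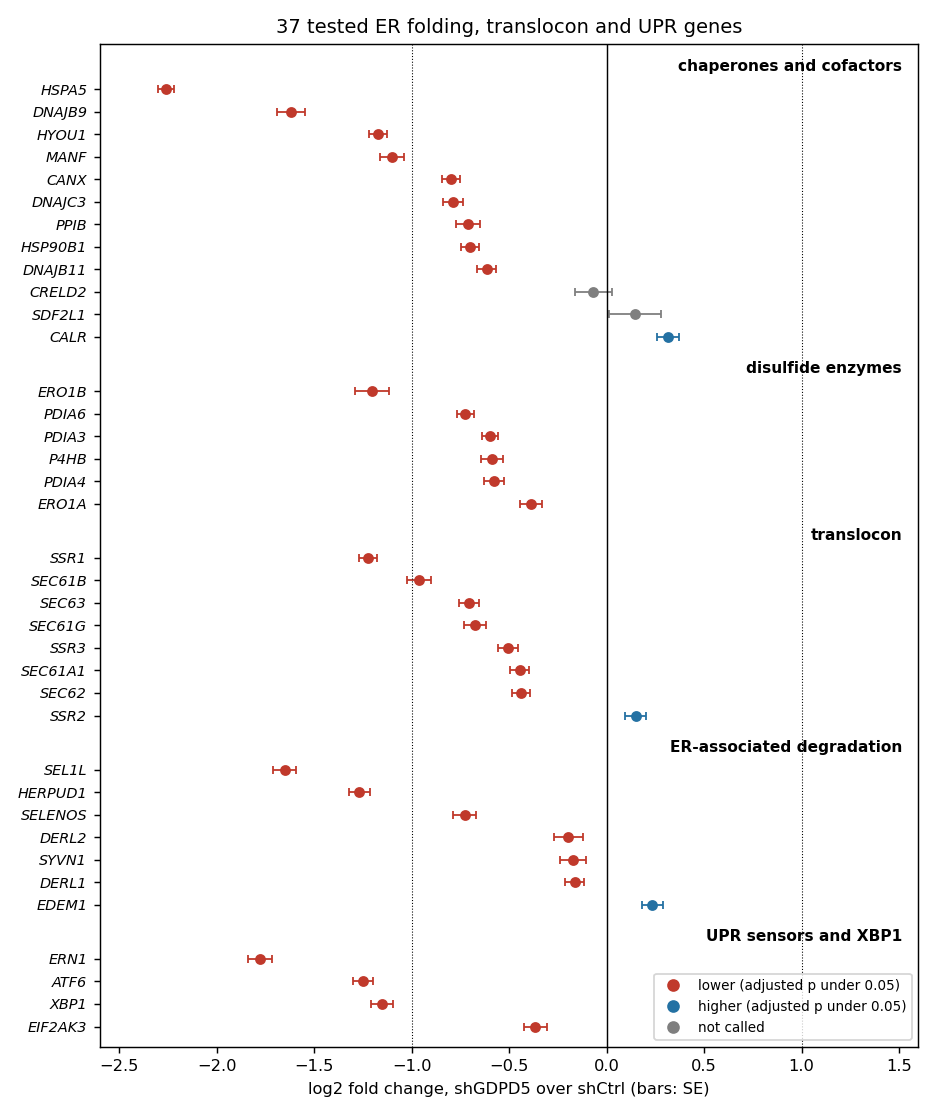
Log2 fold change of shGDPD5 over shCtrl (points) with its standard error (bars) for the 37 tested members, by function and ordered within each function. Red points were lower and blue points higher at an edgeR adjusted p under 0.05, grey points did not pass, and dotted lines mark -1 and 1. HSPA5 lies farthest to the left at -2.26, and CALR, EDEM1 and SSR2 are the members to the right of 0 that passed.

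As a sum, the 38 genes took 0.752%, 0.753% and 0.754% of all counts in the shGDPD5 libraries, against 1.39%, 1.36% and 1.37% in the shCtrl libraries. In CPM the sum was 7393 ± 46.1 in shGDPD5 and 14015 ± 199.7 in shCtrl cells (SD, n = 3 each), or 52.8% of the shCtrl level. The sum leans on its largest contributor, and without HSPA5 it was 63.7% of the shCtrl level. By function, the summed CPM in shGDPD5 cells was 43.2% of the shCtrl level for the sensors and XBP1, 46.4% for the chaperones and cofactors (64.0% without HSPA5), 60.3% for ERAD, 65.1% for the translocon and 66.3% for the disulfide enzymes. Beside these sums, the 13 mitochondrially encoded genes took 10.05%, 10.7% and 10.3% of the counts in the shGDPD5 libraries, against 9.34%, 9.18% and 8.99% in the shCtrl libraries. With those genes left out of the library size the calls were again 32 lower and 3 higher.

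**Figure D3:**
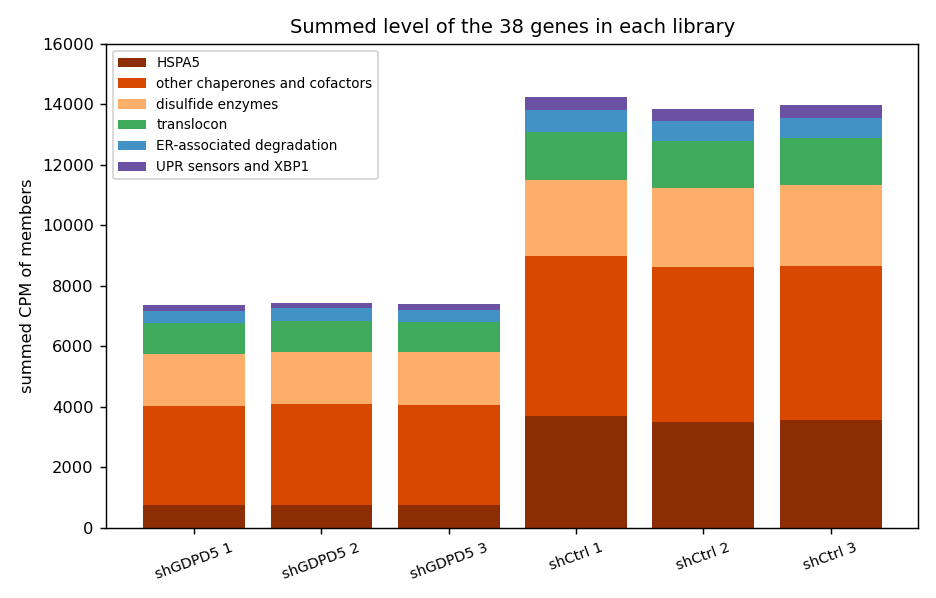
Summed TMM-normalised CPM of the 38 members in each of the 6 libraries, stacked by function with HSPA5 on its own at the base. The 3 shGDPD5 bars reach 7351 to 7442 CPM and the 3 shCtrl bars 13843 to 14234 CPM, and the HSPA5 block alone stands at 743 to 751 CPM in shGDPD5 and at 3508 to 3699 CPM in shCtrl.

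Among the chaperones and cofactors, 9 of 12 genes fell, 1 rose and 2 did not pass, with a median log2 fold change of -0.75. HSPA5 encodes BiP, the ER Hsp70 that binds unfolded chains and holds the UPR sensors inactive. Its gene, ENSG00000044574, spans chr9:125234853-125241330 (GRCh38, minus strand, GENCODE 29). The HSPA5 level was 743, 748 and 751 CPM in the shGDPD5 libraries, against 3699, 3508 and 3548 CPM in the shCtrl libraries. The groups lay far apart, with shGDPD5 cells at 20.9% of the shCtrl mean, a log2 fold change of -2.26 ± 0.04 (SE, edgeR adjusted p = 1.65e-12). Ordered by log2 fold change among the 16755 tested genes, HSPA5 stood at rank 153 from the lowest. It made up 10.1%, 10.1% and 10.2% of the members' counts in the shGDPD5 libraries and 26.0%, 25.3% and 25.4% in the shCtrl libraries. Per kilobase of exon, HSPA5 was the most abundant member in shCtrl cells at 917 CPM per kb, ahead of HSP90B1 at 365 CPM per kb. In shGDPD5 cells its 191 CPM per kb was below the 228 CPM per kb of CALR and the 225 CPM per kb of HSP90B1.

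Of the members that act on or with BiP, DNAJB9, HYOU1, MANF, DNAJC3 and DNAJB11 fell, and SDF2L1, described below, did not pass. DNAJB9, or ERdj4, a J-domain protein that recruits BiP to the lumenal domain of IRE1, had 22.6, 21.9 and 22.6 CPM in the shGDPD5 libraries, against 75.5, 64.2 and 66.2 CPM in the shCtrl libraries (log2 fold change -1.62 ± 0.07, edgeR adjusted p = 2.02e-09). HYOU1, an Hsp110-type chaperone that exchanges the nucleotide of BiP, had 245, 243 and 245 CPM in the shGDPD5 libraries, against 519, 561 and 575 CPM in the shCtrl libraries (-1.17 ± 0.05, edgeR adjusted p = 9.08e-10). MANF, a small secreted ER stress protein that binds BiP, had 39.2, 34.6 and 38.4 CPM in the shGDPD5 libraries, against 79.7, 82.6 and 78.4 CPM in the shCtrl libraries (-1.10 ± 0.06, edgeR adjusted p = 1.25e-08). For each of these the shGDPD5 libraries lay below every shCtrl library by a margin wider than the spread within either group. DNAJC3 (p58IPK, -0.79) and DNAJB11 (ERdj3, -0.62), a further pair of J-domain proteins, fell by less. Of the ER J-domain genes in the glycoprotein folding list used below, DNAJC10 fell (-0.78), while DNAJC1 (-0.10, edgeR adjusted p = 0.319) and DNAJC25 (-0.07, edgeR adjusted p = 0.473) did not pass.

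HSP90B1, which encodes GRP94, the ER member of the Hsp90 family, fell with a log2 fold change of -0.70, and PPIB, the ER prolyl isomerase cyclophilin B, with -0.71. HSPA5 and HSP90B1, whose promoters both hold an ERSE match, moved unequally, and the part of the element in their change was not tested. The ratio of HSPA5 CPM to HSP90B1 CPM was 0.711, 0.707 and 0.711 in the shGDPD5 libraries, against 2.02, 2.11 and 2.16 in the shCtrl libraries. This ratio, like the others given below, was chosen after the values were seen and is a description with no test.

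The lectin chaperones went in opposite directions. CANX encodes calnexin, the membrane-bound lectin chaperone, and CALR encodes calreticulin, its soluble counterpart. CANX had 927, 950 and 935 CPM in the shGDPD5 libraries, against 1736, 1574 and 1577 CPM in the shCtrl libraries (log2 fold change -0.80 ± 0.05, edgeR adjusted p = 2.08e-08). CALR had 600, 637 and 618 CPM in the shGDPD5 libraries, against 450, 515 and 525 CPM in the shCtrl libraries (0.32 ± 0.06, edgeR adjusted p = 0.000416). In neither gene did the groups overlap, and the lowest CALR value of all belonged to shCtrl replicate 1. The ratio of CALR CPM to CANX CPM was 0.647, 0.671 and 0.662 in the shGDPD5 libraries, against 0.259, 0.327 and 0.333 in the shCtrl libraries.

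SDF2L1 and CRELD2, both small ER stress-induced chaperone cofactors, did not pass the test. SDF2L1 had 9.53, 10.4 and 9.31 CPM in the shGDPD5 libraries, against 6.99, 9.37 and 10.03 CPM in the shCtrl libraries. Its log2 fold change was 0.15 (95% interval -0.11 to 0.40, edgeR adjusted p = 0.363). CRELD2 had 18.5, 17.7 and 17.7 CPM in the shGDPD5 libraries, against 16.1, 20.4 and 20.1 CPM in the shCtrl libraries. Its log2 fold change was -0.07 (95% interval -0.26 to 0.12, edgeR adjusted p = 0.551), and without shCtrl replicate 1 it was -0.18 (edgeR adjusted p = 0.0448). In both genes the groups overlap and shCtrl replicate 1 was the lowest shCtrl library, and both intervals lie above the log2 fold changes of HSPA5, DNAJB9, HYOU1 and MANF.

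**Figure D4:**
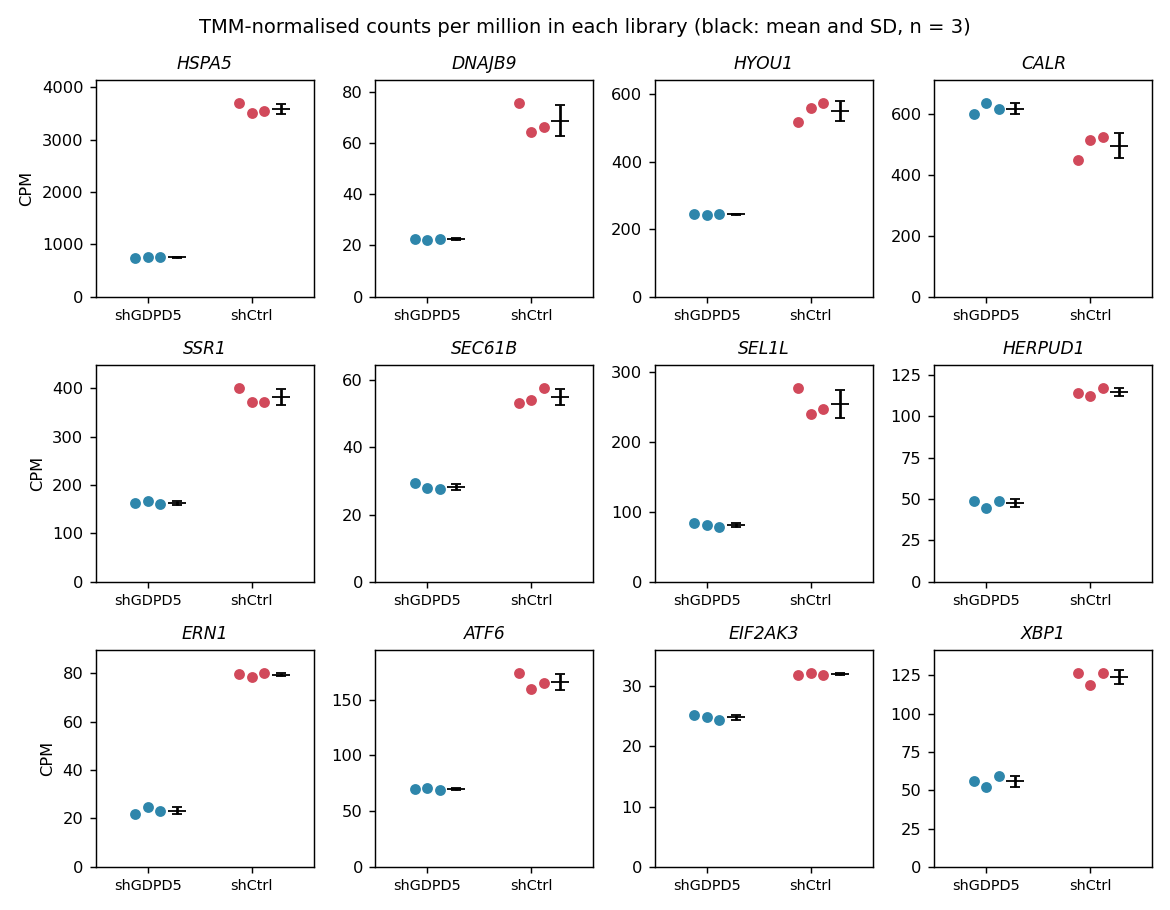
TMM-normalised CPM of 12 members in each library (coloured points) with the mean and SD of the 3 libraries of each group (black), on axes that start at 0. The shGDPD5 points lie below all shCtrl points in 11 of the 12 panels and above them for CALR.

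All 6 disulfide enzymes fell, with a median log2 fold change of -0.59. PDIA6, an isomerase that also attenuates IRE1, had 159, 167 and 169 CPM in the shGDPD5 libraries, against 273, 266 and 278 CPM in the shCtrl libraries (-0.72 ± 0.04, edgeR adjusted p = 3.88e-08). PDIA3, or ERp57, which works with calnexin and calreticulin on glycoproteins, had 456, 455 and 453 CPM in the shGDPD5 libraries, against 719, 669 and 678 CPM in the shCtrl libraries (-0.60 ± 0.04, edgeR adjusted p = 1.33e-07). PDIA4, or ERp72, had 214, 210 and 216 CPM in the shGDPD5 libraries, against 294, 331 and 330 CPM in the shCtrl libraries (-0.58 ± 0.05, edgeR adjusted p = 1.07e-06). The isomerases moved within a narrow range, since P4HB, the founding protein disulfide isomerase, had -0.59.

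The oxidases that recharge the isomerases with disulfides fell to different extents. ERO1B had 12.97, 12.4 and 13.8 CPM in the shGDPD5 libraries, against 33.1, 29.3 and 27.8 CPM in the shCtrl libraries (-1.20 ± 0.09, edgeR adjusted p = 1.24e-07). ERO1A, its paralogue that is also known to respond to hypoxia, had a log2 fold change of -0.39. The ratio of ERO1B CPM to ERO1A CPM was 0.0843, 0.0792 and 0.0904 in the shGDPD5 libraries, against 0.151, 0.156 and 0.141 in the shCtrl libraries. PDIA6 shares 25.2% of its exonic bases with ATP6V1C2 and PDIA3 14.8% with ELL3, both on the opposite strand, and the partners had at most 109 and 289 counts in a library. Whether the counting used strand is not given in the sources used here.

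In the translocon, 7 of 8 genes fell and 1 rose, with a median log2 fold change of -0.59. The Sec61 channel is built of an alpha subunit that forms the pore (SEC61A1) and the small beta (SEC61B) and gamma (SEC61G) subunits. SEC61B had 29.3, 27.8 and 27.6 CPM in the shGDPD5 libraries, against 53.2, 54.2 and 57.7 CPM in the shCtrl libraries (-0.96 ± 0.06, edgeR adjusted p = 3.90e-08). SEC61G had 80.9, 83.0 and 74.0 CPM in the shGDPD5 libraries, against 128, 130 and 122 CPM in the shCtrl libraries (-0.68 ± 0.06, edgeR adjusted p = 4.78e-07). SEC61A1 fell by less, with a log2 fold change of -0.45, so that the ratio of SEC61B CPM to SEC61A1 CPM was 0.119, 0.112 and 0.114 in the shGDPD5 libraries, against 0.169, 0.160 and 0.165 in the shCtrl libraries. SEC63, the J-domain protein that brings BiP to the channel, had 74.6, 74.9 and 71.6 CPM in the shGDPD5 libraries, against 126, 118 and 116 CPM in the shCtrl libraries (-0.71 ± 0.05, edgeR adjusted p = 1.65e-07). SEC62, its partner in translocation after translation, had a log2 fold change of -0.44.

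The translocon-associated protein (TRAP) complex, which assists chains of weak signal peptides, did not move as a whole, since SSR2 stood apart from the other subunits. SSR1, its alpha subunit, had 162, 168 and 160 CPM in the shGDPD5 libraries, against 401, 371 and 373 CPM in the shCtrl libraries (-1.23 ± 0.05, edgeR adjusted p = 6.52e-10). SSR3, the gamma subunit, had -0.51. SSR4, a further subunit that is no member and was named after its value was seen, had -0.52 (edgeR adjusted p = 1.46e-05). SSR2, the beta subunit, had 104, 109 and 104 CPM in the shGDPD5 libraries, against 91.0, 94.2 and 99.9 CPM in the shCtrl libraries (0.15 ± 0.05, edgeR adjusted p = 0.0262). The ratio of SSR1 CPM to SSR2 CPM was 1.57, 1.54 and 1.54 in the shGDPD5 libraries, against 4.40, 3.94 and 3.73 in the shCtrl libraries. The call of SSR2 was weak: without shCtrl replicate 2 its log2 fold change was 0.14 (edgeR adjusted p = 0.0862), and without shGDPD5 replicate 1, 2 or 3 it was 0.16, 0.12 and 0.16 (edgeR adjusted p = 0.0593, 0.135 and 0.0636). It also missed the threshold with no low-count filter (0.13, edgeR adjusted p = 0.0770) and with limma on log2(CPM + 1) (0.15, limma adjusted p = 0.0786), which makes 6 of 15 alternatives.

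In ERAD 6 of the 7 tested genes fell and 1 rose, and the median log2 fold change of -0.20 was the nearest to 0 of the 5 functions, with genes from -1.65 to 0.23. SEL1L is the adaptor that holds the ubiquitin ligase HRD1 complex together, and its gene spans chr14:81471549-81533861 (minus strand). The SEL1L level was 83.3, 81.3 and 77.9 CPM in the shGDPD5 libraries, against 277, 239 and 247 CPM in the shCtrl libraries (-1.65 ± 0.06, edgeR adjusted p = 4.12e-10). HERPUD1, a stress-induced membrane protein of the same complex, had 48.8, 44.8 and 49.1 CPM in the shGDPD5 libraries, against 114, 113 and 117 CPM in the shCtrl libraries (-1.27 ± 0.05, edgeR adjusted p = 1.31e-09). SELENOS, a selenoprotein that links the complex to the cytosolic ATPase VCP, had 32.8, 34.96 and 32.4 CPM in the shGDPD5 libraries, against 57.4, 54.0 and 54.7 CPM in the shCtrl libraries (-0.73 ± 0.06, edgeR adjusted p = 3.87e-07). In each of these 3 genes the groups lay apart by far more than their spread.

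The ligase of that complex and the Derlins stayed near the control level. SYVN1, which encodes HRD1 itself, had 38.3, 38.1 and 40.15 CPM in the shGDPD5 libraries, against 40.06, 45.6 and 45.6 CPM in the shCtrl libraries (-0.17 ± 0.07, edgeR adjusted p = 0.0382). Its groups overlap, and leaving out any library other than shCtrl replicate 1 ended the call (edgeR adjusted p between 0.0561 and 0.127). SYVN1 also shares 7.24% of its exonic bases, on the same strand, with the more highly expressed FAU. The ratio of SEL1L CPM to SYVN1 CPM was 2.18, 2.13 and 1.94 in the shGDPD5 libraries, against 6.91, 5.24 and 5.42 in the shCtrl libraries. DERL1 and DERL2, membrane proteins that help carry substrates out of the ER, had log2 fold changes of -0.16 and -0.20, and both calls depended on the libraries used. Without shGDPD5 replicate 3 DERL1 had -0.16 (edgeR adjusted p = 0.0503) and DERL2 -0.12 (edgeR adjusted p = 0.187), and DERL2 also lost its call without shGDPD5 replicate 1 (-0.20, edgeR adjusted p = 0.0774), shCtrl replicate 2 (-0.19, edgeR adjusted p = 0.0826) or shCtrl replicate 3 (-0.21, edgeR adjusted p = 0.0511).

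EDEM1, a mannose-trimming lectin that directs misfolded glycoproteins to degradation and a known target of spliced XBP1, had 71.4, 70.8 and 72.5 CPM in the shGDPD5 libraries, against 64.1, 59.0 and 59.5 CPM in the shCtrl libraries. It rose with a log2 fold change of 0.23 ± 0.05 (edgeR adjusted p = 0.00216), and its groups did not overlap. DERL3, the Derlin known from secretory tissues, had 1, 0 and 1 counts in the shGDPD5 libraries and 0 counts in every shCtrl library, and it was not tested. Of the exonic bases of DERL3, 77.0% overlap SMARCB1 on the other strand.

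All 4 genes of the sensors and XBP1 fell, and their median log2 fold change of -1.20 was the lowest of the 5 functions. ERN1 encodes IRE1, the kinase and endonuclease that splices XBP1 mRNA, and spans chr17:64039142-64130819 (minus strand). ERN1 stood at 21.7, 24.7 and 23.0 CPM in the shGDPD5 libraries, against 79.8, 78.7 and 80.1 CPM in the shCtrl libraries (-1.78 ± 0.06, edgeR adjusted p = 2.10e-10). ATF6, the membrane-bound transcription factor, had 69.9, 71.0 and 68.6 CPM in the shGDPD5 libraries, against 174, 159 and 165 CPM in the shCtrl libraries (-1.25 ± 0.05, edgeR adjusted p = 8.86e-10). XBP1 had 56.1, 52.1 and 59.2 CPM in the shGDPD5 libraries, against 126, 119 and 126 CPM in the shCtrl libraries (-1.15 ± 0.06, edgeR adjusted p = 5.71e-09). Counts per gene do not separate spliced from unspliced XBP1 mRNA, and they give no measure of sensor activity.

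The third sensor moved less. EIF2AK3, which encodes PERK, the kinase that phosphorylates eIF2α, had 25.2, 24.8 and 24.3 CPM in the shGDPD5 libraries, against 31.9, 32.1 and 31.8 CPM in the shCtrl libraries (-0.37 ± 0.06, edgeR adjusted p = 0.000182). The difference was small, yet the groups did not overlap. The ratio of ERN1 CPM to EIF2AK3 CPM was 0.861, 0.994 and 0.947 in the shGDPD5 libraries, against 2.50, 2.45 and 2.52 in the shCtrl libraries.

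The rest of the pathway was read from 9 further lists of 152 genes, of which 147 were tested, 91 fell, 31 rose and 25 did not pass. Of all tested genes 30.1% fell and 29.7% rose, and the counts for each list below are to be read beside these shares. Their median log2 fold change was -0.27, which lies between that of the members and that of all genes. The genes named from these lists are those of smallest adjusted p unless said otherwise. Like the members, the lists were chosen with earlier results of these data known, so their shares are a description.

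The list named the PERK-ATF4-CHOP branch was the lowest of these, with 14 of 15 genes lower, 0 higher and a median log2 fold change of -1.39. The name says how the genes were listed. PERK activity was not measured, and whether PERK or another stress signal acted on these genes in the irradiated cells was not tested. DDIT4, an inhibitor of mTORC1 signalling, had 93.7, 87.6 and 84.8 CPM in the shGDPD5 libraries, against 525, 609 and 608 CPM in the shCtrl libraries (-2.71 ± 0.07, edgeR adjusted p = 1.73e-11). DDIT3, which encodes the transcription factor CHOP, had 13.3, 15.4 and 14.7 CPM in the shGDPD5 libraries, against 66.0, 72.7 and 67.8 CPM in the shCtrl libraries (-2.25 ± 0.07, edgeR adjusted p = 1.18e-10). ATF3, a stress-induced transcription factor, had -1.88, TRIB3, a pseudokinase induced by CHOP, had -1.62, and PSAT1, an enzyme of serine synthesis, had -1.08. ATF4, named after its value was seen, had 501, 485 and 508 CPM in the shGDPD5 libraries, against 541, 566 and 587 CPM in the shCtrl libraries, a log2 fold change of -0.18 (edgeR adjusted p = 0.00353). ATF4 is known to be controlled at translation, which these counts do not measure. VLDLR, with under 1.2 CPM in every library, was the gene that did not pass (edgeR adjusted p = 0.0857).

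The regulators of the ATF6 and XBP1 pathways had no common direction, with 5 of 11 tested genes lower, 4 higher and a median log2 fold change of -0.01. CREB3L2, a relative of ATF6 cleaved in the same way, had 34.2, 35.2 and 33.1 CPM in the shGDPD5 libraries, against 139, 131 and 127 CPM in the shCtrl libraries (-1.95, edgeR adjusted p = 6.70e-11). CREBZF, a bZIP protein of the same wider family, rose with 0.71. ATF6B, the paralogue of ATF6 and named after its value was seen, rose with 0.71 as well, opposite to ATF6.

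Other folding genes followed the members more weakly. Of 20 tested oxidoreductases and isomerases 14 fell and 4 rose, with a median of -0.41, and of 18 genes of the glycoprotein folding cycle 12 fell and 1 rose, with a median of -0.32. CLGN, which encodes calmegin, a calnexin-like chaperone known from testis, had 2.16, 2.13 and 2.03 CPM in the shGDPD5 libraries, against 30.9, 27.8 and 26.6 CPM in the shCtrl libraries (-3.75, edgeR adjusted p = 7.79e-11). LMAN1, a cargo receptor for glycoproteins, fell with -1.08. FKBP11, an ER prolyl isomerase, went the other way with 71.4, 73.7 and 70.0 CPM in the shGDPD5 libraries, against 35.5, 34.3 and 31.4 CPM in the shCtrl libraries (1.09, edgeR adjusted p = 1.37e-08), while PPIC, or cyclophilin C, fell with -0.92.

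Genes of entry into the ER were mixed. In the signal recognition particle and its receptor 6 of 8 genes fell and 2 rose, with SRP72 at -0.73 and SRP19 at -0.76. Of 21 genes of signal peptidase and other translocon parts 7 fell and 9 rose, beside the 30.1% and 29.7% of all tested genes. Their median was 0.09, and the leading pair, SPCS3 and SEC11C of the signal peptidase complex, had -0.81 and -0.82. In the oligosaccharyltransferase, which adds N-glycans to entering chains, 10 of 12 genes fell and 0 rose, with OSTC at -0.70 and its catalytic subunit STT3A at -0.53. The 2 genes of that list that did not pass were KRTCAP2 (-0.15) and OST4 (0.13).

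In other genes of ERAD 12 of 23 fell and 8 rose, with a median of -0.16, and their summed CPM in shGDPD5 cells was 106% of the shCtrl level. UBE2J1, the membrane-bound ubiquitin-conjugating enzyme that works with HRD1, fell with -1.01. UFD1, a cofactor of VCP in the cytosol, had 108, 117 and 111 CPM in the shGDPD5 libraries, against 55.9, 61.3 and 57.0 CPM in the shCtrl libraries (0.95, edgeR adjusted p = 2.33e-08). VCP itself (0.87) and NPLOC4 (0.71), the other subunit of the UFD1 cofactor, rose too, and were named after their values were seen. The other 5 genes of the list that rose were AUP1 (0.52), RNF5 (0.37), UBE2J2 (0.26), UBE2G2 (0.21) and MARCHF6 (0.13).

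In the COPII coat and ER export list 11 of 19 genes fell and 3 rose, with a median of -0.27. TMED10, a cargo receptor of the p24 family, had a log2 fold change of -0.95. KDELR3, a receptor that returns proteins with the KDEL signal, BiP among them, to the ER, had 17.7, 17.9 and 18.0 CPM in the shGDPD5 libraries, against 44.4, 39.9 and 41.9 CPM in the shCtrl libraries (-1.23, edgeR adjusted p = 9.90e-09). Its paralogues, named after their values were seen, moved unequally, with -0.33 for KDELR2 and 0.08 for KDELR1 (edgeR adjusted p = 0.235).

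**Figure D5:**
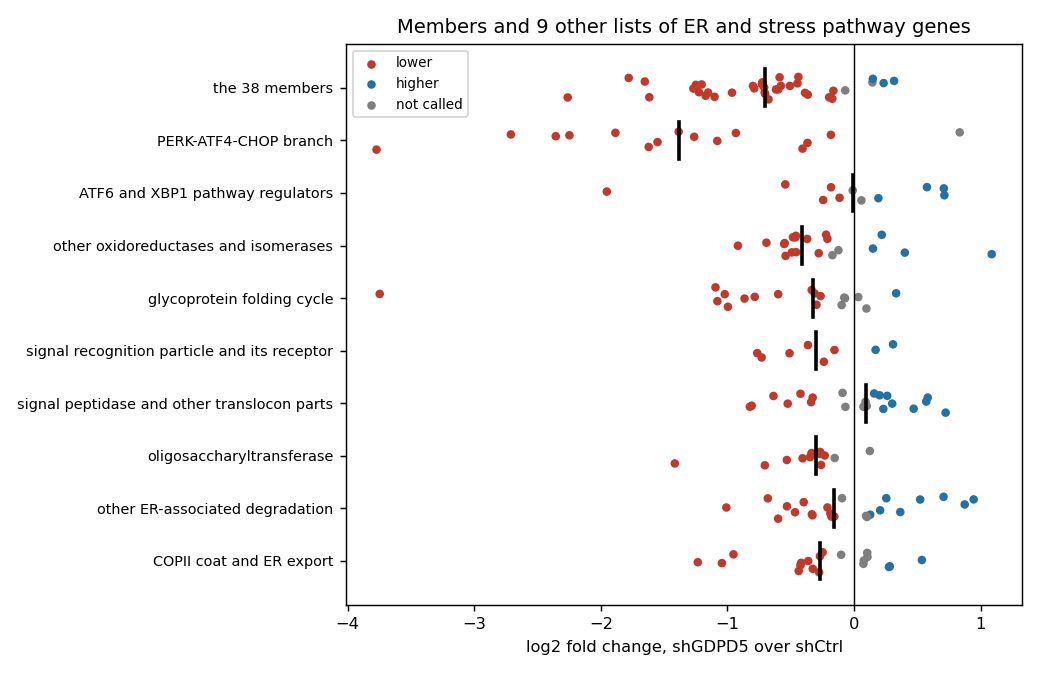
Log2 fold change of shGDPD5 over shCtrl for the tested members (top) and for the tested genes of 9 further ER and stress lists, with a point for each gene (red lower, blue higher, grey not passing an edgeR adjusted p of 0.05) and a black bar at each median. The PERK-ATF4-CHOP branch has the lowest median at -1.39, the members stand at -0.70, and the points of signal peptidase and other translocon parts lie on both sides of 0 around a median of 0.09.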

How the data were processed

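The authors deposited estimated counts per gene (not whole numbers, not scaled between libraries) for 6 libraries made from total RNA (SMARTER mRNA-Seq kit, per the labels). How reads were aligned and counted, with which strand setting and on which build, is not given in the sources used here. Columns were matched to sample labels by library name.

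Counts were rounded to whole numbers. Genes with low counts were removed with edgeR's filterByExpr (minimum count 10), leaving 16755 of 79302, and tested in edgeR 4.0.16 (R 4.3.3) by quasi-likelihood with TMM factors and Benjamini-Hochberg adjustment over all of them. Standard errors were taken as the log2 fold change over the square root of the F statistic, and 95% intervals as 1.96 standard errors on each side. Totals of 16715447 to 18510670 counts limit precision for genes of a few counts. No pair of replicates was as close as sampling noise (chi-square per degree of freedom 1.65 to 7.28, the highest values being those of shCtrl replicate 1). The procedure was tested on simulated data.

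Positions, exon lengths and overlaps came from GENCODE release 29, promoters from RefSeq on GRCh38.p14. Values in each library were given for up to 4 members per function of smallest adjusted p, all sensors and the members that did not pass, and up to 2 genes per further list (5 for the PERK-ATF4-CHOP branch) were named. CALR, CANX, SSR2 and SYVN1 were given in each library after their values were seen. Members, lists and this rule were chosen with earlier results of these data known. Alternatives were DESeq2 1.42.0, limma 3.58.1 (voom, or on log2(CPM + 1)), upper quartile or RLE factors, 2 other count filters, library sizes without mitochondrial genes, a replicate block and each library left out.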

Additional observations from a re-analysis of the deposited data

How the results depend on the processing

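Over the 15 alternatives, 29 to 33 members were lower and 2 or 3 higher, 11 members passed the study's thresholds in each, 32 of the 37 tested members kept their call in each, and no member changed sign. The exceptions were SYVN1, SSR2, DERL2, DERL1 and CRELD2. SYVN1 lost its call in 8 alternatives, SSR2 and DERL2 in 6 each and DERL1 in 1, and CRELD2 gained a call in 1. Beyond the left-out libraries, SYVN1 missed the threshold with upper quartile factors (-0.16, edgeR adjusted p = 0.0572), DESeq2 (-0.18, adjusted p = 0.0712) and limma on log2(CPM + 1) (-0.16, adjusted p = 0.0841), and DERL2 with DESeq2 (-0.20, adjusted p = 0.0591) and limma on log2(CPM + 1) (-0.20, adjusted p = 0.0730). DERL3, tested with no count filter only, did not pass (edgeR adjusted p = 0.427). Leaving out 1 library at a time, the median log2 fold change lay between -0.78 and -0.75 for chaperones and cofactors, -0.65 and -0.59 for disulfide enzymes, -0.62 and -0.56 for the translocon, -0.28 and -0.20 for ERAD, and -1.23 and -1.18 for the sensors and XBP1. All tested genes called numbered 8711 to 10536, against 10006, and the median of all genes shifted by at most 0.02. GDPD5 lay between -0.99 and -0.75. Libraries of the same replicate number did not deviate together (correlations -0.12, -0.05 and 0.02), and with a replicate block 32 members were lower and 3 higher. Limiting the promoter search to bases before the start again gave 8 members with an ERSE match. Genes of a few counts, such as DERL3, are limited by depth.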
